A study of Mus musculus with 6 samples.

Results

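The lambda light chain genes *Iglv1*, *Iglv2*, *Iglv3*, *Iglc1*, *Iglc2* and *Iglc3* and the heavy chain variable gene *Ighv1-72* were counted in RNA from Tfh cells sorted out of the spleens of 3 CTL and 3 *Prdm1*-CKO mice. These 7 genes, of the 53379 gene identifiers counted, were chosen by name as the antibody genes that C57BL/6 mice use against NP, the hapten of the immunogen, and each had a single identifier. The mice were female, were immunized with NP-CGG in CFA at 6 to 8 weeks of age and were killed on day 7. CTL mice were *Prdm1* fl/fl without CD11c-Cre or *Prdm1* +/+ with CD11c-Cre, but the genotype of each single CTL mouse is not given. *Prdm1*-CKO mice were *Prdm1* fl/fl with CD11c-Cre, a transgene that deletes *Prdm1* in cells that use the CD11c promoter, chiefly DCs. The labels call these mice Blimp1 KO in the titles and Blimp1 KD in the genotype field. Live TCRβ+CD4+CXCR5+PD1+ cells were sorted, so that the genes described here belong to a lineage outside the stated gate.

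An antibody pairs a heavy chain with a kappa or a lambda light chain, and each chain joins a rearranged variable region to a constant region. B lineage cells rearrange these genes, and Tfh cells, which help B cells in the germinal center, do not. In the mouse most antibodies carry kappa chains, and the small lambda locus on chromosome 16 makes a minority. *Iglv1* is joined to *Iglj1* and *Iglc1* or to *Iglj3* and *Iglc3*, and *Iglv2* to *Iglj2* and *Iglc2*. *Iglv3* is also joined mainly to *Iglj2* and *Iglc2*. The early response of C57BL/6 mice to NP is known for the pairing of an *Ighv1-72* heavy chain, often called V186.2, with a lambda chain made from *Iglv1*. That heavy chain typically also carries the diversity segment *Ighd1-1* and the joining segment *Ighj2*.

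The germline coding sequences are shown because paired reads of 25 bases had to tell these genes apart. They come from GENCODE M21 on GRCm38, on the minus strand, and each stretch was taken where it holds the most informative bases. For the first pair it is bases 48 to 347 of the coding sequence, in the second of 2 exons (chr16:19085021-19085320 in *Iglv1* and chr16:19260405-19260704 in *Iglv2*). Capitals mark 9 of the 11 positions, among 351 aligned, at which the pair differs.
Iglv1: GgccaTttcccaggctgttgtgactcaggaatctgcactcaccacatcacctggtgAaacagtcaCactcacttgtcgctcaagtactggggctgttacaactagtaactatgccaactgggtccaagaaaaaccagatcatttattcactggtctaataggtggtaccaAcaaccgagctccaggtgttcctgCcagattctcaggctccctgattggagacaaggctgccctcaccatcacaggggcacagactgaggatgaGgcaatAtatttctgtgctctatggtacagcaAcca
Iglv2: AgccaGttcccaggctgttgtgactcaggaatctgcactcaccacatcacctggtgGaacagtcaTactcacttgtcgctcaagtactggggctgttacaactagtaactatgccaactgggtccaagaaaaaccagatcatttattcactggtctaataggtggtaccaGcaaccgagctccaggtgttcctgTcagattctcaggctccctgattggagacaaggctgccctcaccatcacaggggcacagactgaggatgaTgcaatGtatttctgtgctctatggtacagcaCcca
The pair was 96.9% identical, whereas *Iglv3* was 53.8% identical to *Iglv1*. Of the 367 different windows of 25 bases in the *Iglv1* transcript, 156 (42.5%) also occurred in *Iglv2*, and 0 of 357 windows of *Iglv3* occurred in another annotated gene. Each window stands for a single read, and the mate of a read pair was not considered.

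The constant genes fall into an outlying gene and a close pair. Each has a single coding exon, of which 300 bases are shown. In *Iglc2* (chr16:19198554-19198853) and *Iglc3* (chr16:19065382-19065681), capitals mark the bases that differ between that pair, the first of which *Iglc3* lacks. In *Iglc1* (chr16:19061761-19062060), they mark the bases that differ from *Iglc2*.
Iglc1: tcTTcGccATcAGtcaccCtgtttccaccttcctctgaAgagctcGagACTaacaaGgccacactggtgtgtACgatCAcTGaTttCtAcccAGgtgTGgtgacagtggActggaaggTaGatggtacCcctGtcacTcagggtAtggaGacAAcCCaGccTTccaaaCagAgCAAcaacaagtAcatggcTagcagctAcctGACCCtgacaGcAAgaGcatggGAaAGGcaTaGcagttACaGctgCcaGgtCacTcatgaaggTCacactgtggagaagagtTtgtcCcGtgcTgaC
Iglc2: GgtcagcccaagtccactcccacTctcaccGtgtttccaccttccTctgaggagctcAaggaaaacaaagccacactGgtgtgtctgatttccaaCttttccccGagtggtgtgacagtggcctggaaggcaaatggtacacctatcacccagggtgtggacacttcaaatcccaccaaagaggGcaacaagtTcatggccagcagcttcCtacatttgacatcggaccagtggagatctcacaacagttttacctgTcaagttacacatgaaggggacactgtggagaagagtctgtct
Iglc3: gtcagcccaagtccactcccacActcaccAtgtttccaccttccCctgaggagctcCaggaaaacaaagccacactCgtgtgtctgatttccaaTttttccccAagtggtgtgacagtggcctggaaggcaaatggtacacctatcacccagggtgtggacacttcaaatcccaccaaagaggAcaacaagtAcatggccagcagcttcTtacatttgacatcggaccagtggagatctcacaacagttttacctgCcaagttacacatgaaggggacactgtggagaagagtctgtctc
*Iglc2* and *Iglc3* were 96.2% identical, and *Iglc1* was 73.4% identical to *Iglc2*. *Iglc1* shared 7 of 430 windows of 25 bases with another annotated gene. *Iglc2* shared 144 of 587 (24.5%) and *Iglc3* shared 202 of 428 (47.2%), of which 130 were common to these 2 genes. A further 72 windows of *Iglc3* were held by the antisense transcript 2010309G21Rik, which overlaps the locus on the plus strand and was counted at 0 to 5 reads a mouse. Whether the counting used strand is not given in the sources used here, so that reads from these 72 windows cannot be assigned to *Iglc3* or to this transcript.

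A stretch of 150 coding bases across the join of the 2 exons of *Ighv1-72* (chr12:115758154-115758385) is shown to mark how little of it is its own. Capitals give the only stretch covered by a window of 25 bases that no other annotated gene holds.
Ighv1-72: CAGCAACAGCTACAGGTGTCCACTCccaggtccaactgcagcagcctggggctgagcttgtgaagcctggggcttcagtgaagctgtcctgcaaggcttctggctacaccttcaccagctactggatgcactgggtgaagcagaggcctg
Of its 372 windows, 371 (99.7%) occurred in at least 1 other gene, and 64 genes held some of them. *Ighv1-62-3* held 312 of these windows and *Ighv1-53* held 158. Counts of *Ighv1-72* are therefore uncertain, since reads of like variable genes could be set aside or placed on a neighbour. Single windows leave out the mate, so these shares do not give the part of read pairs that was ambiguous. Windows of germline sequence do not hold the joins or the mutations of expressed antibodies, which were not analysed here.

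Total counts per mouse lay between 7147601 and 16973392. CTL replicate 2 stood apart, its average Pearson correlation with the remaining mice, taken across genes, being 0.875, against 0.923 to 0.944 for the others. Levels are given as CPM, counts per 1000000 after TMM scaling, and 3 counts, the smallest level read as present, corresponded to 0.169 to 0.443 CPM. The markers of the labelled cell type were present: all 12 Tfh marker genes were detected, with a summed level of 4241 to 5417 CPM. Of 12 B cell marker genes all passed the expression filter, and their summed level was 119 to 204 CPM in CTL and 171 to 264 CPM in *Prdm1*-CKO mice. Of these, *Pax5*, *Ebf1*, *Fcer2a* and *Fcrla* were at 0 counts in CTL replicate 2. In bulk RNA, fewer cells of a type and less RNA per cell cannot be told apart.

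All 7 genes were higher on average in *Prdm1*-CKO than in CTL mice, and 0 of them passed the test across all genes. CTL replicates 1 to 3 gave 1339, 202 and 280 counts of *Iglv1*, the main lambda variable gene, against 2098, 961 and 3660 in *Prdm1*-CKO replicates 1 to 3. These were 91.5, 23.9 and 41.3 CPM in CTL and 118, 97.5 and 250.0 CPM in *Prdm1*-CKO mice. The groups did not overlap, although *Prdm1*-CKO replicate 2 exceeded CTL replicate 1 by little. The groups differed by a log2 fold change of 1.56 (standard error, SE, 0.52), with an edgeR p of 0.0165 before and 0.996 after adjustment, and without *Prdm1*-CKO replicate 3 it was 1.04 (edgeR unadjusted p = 0.0773).

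*Iglv2*, its close relative, varied less among CTL mice. It was at 50.9, 42.4 and 55.1 CPM in CTL and at 50.7, 118 and 90.9 CPM in *Prdm1*-CKO mice. *Prdm1*-CKO replicate 1 was as low as the CTL mice, so that the groups overlapped, and replicate 2 was the highest. Its log2 fold change was 0.80 (SE 0.30, edgeR unadjusted p = 0.0268, adjusted p = 0.996), and without replicate 2 of the *Prdm1*-CKO mice it was 0.52 (edgeR unadjusted p = 0.117). *Iglv3*, the third variable gene of the locus, was scarce, with counts of 20, 3 and 7 against 21, 21 and 36 in CTL and *Prdm1*-CKO mice. Its groups overlapped, at 0.918 ± 0.516 CPM (SD, n = 3) in CTL and 1.92 ± 0.664 CPM (SD, n = 3) in *Prdm1*-CKO mice. The log2 fold change of *Iglv3* was 1.04 (SE 0.72, edgeR adjusted p = 0.996), and 0.65 without CTL replicate 2.

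**Figure D1:**
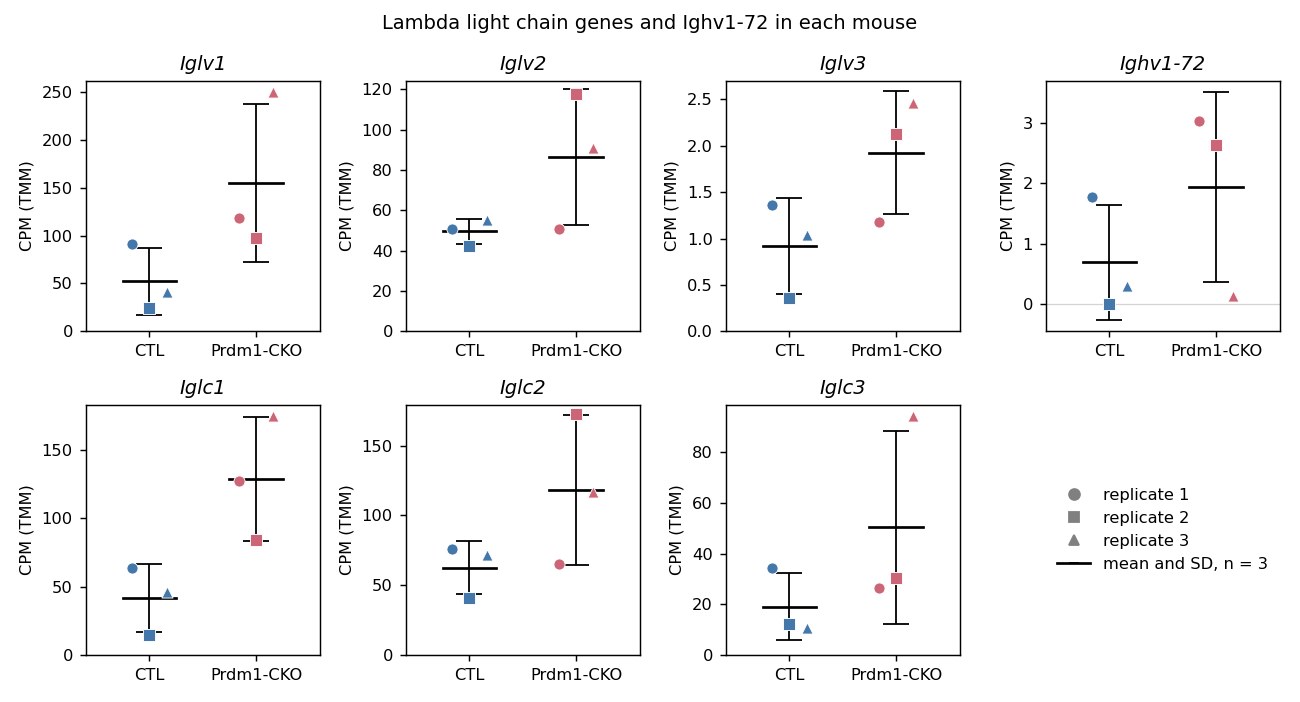
Level of each gene in each mouse, in CPM after TMM scaling, on a separate linear axis for each gene. Points are mice, and bars give the mean and SD of 3 mice. *Iglv1* and *Iglc1* are the genes in which the groups do not overlap, and *Ighv1-72* stays at or under 3.04 CPM in every mouse.

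Among the constant genes, *Iglc1* separated the groups. For *Iglc1*, which is joined to *Iglv1*, CTL mice gave 930, 124 and 311 counts and *Prdm1*-CKO mice 2267, 825 and 2560. Its level was 63.6, 14.7 and 45.9 CPM in CTL and 127, 83.7 and 175 CPM in *Prdm1*-CKO mice. Thus the lowest *Prdm1*-CKO mouse, replicate 2, stood above the highest CTL mouse, replicate 1. On the log2 scale the difference was 1.63 (SE 0.49). The edgeR p was 0.0100 before and 0.996 after adjustment, and DESeq2 gave an adjusted p of 0.265.

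*Iglc2*, the constant gene of the *Iglv2* and *Iglv3* chains, was at 75.5, 40.8 and 71.4 CPM in CTL and at 64.9, 173 and 117 CPM in *Prdm1*-CKO mice. The groups overlapped through *Prdm1*-CKO replicate 1, the same mouse as for *Iglv2*. Its log2 fold change was 0.91 (SE 0.37, edgeR unadjusted p = 0.0378, adjusted p = 0.996), and was 0.54 (edgeR unadjusted p = 0.173) when *Prdm1*-CKO replicate 2 was left out. *Iglc3*, the other constant gene joined to *Iglv1*, was at 34.3, 12.2 and 10.8 CPM in CTL and at 26.4, 30.3 and 94.4 CPM in *Prdm1*-CKO mice. Here the mean of the *Prdm1*-CKO mice was carried by replicate 3, and CTL replicate 1 exceeded the other *Prdm1*-CKO mice. The log2 fold change of *Iglc3* was 1.38 (SE 0.61, edgeR unadjusted p = 0.0512, adjusted p = 0.996), and it was 0.56 without *Prdm1*-CKO replicate 3 and 2.12 without CTL replicate 1.

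All 7 genes passed the expression filter, as did 14555 genes in all. At an unadjusted p under 0.05, 4 of the 7 (*Iglv1*, *Iglv2*, *Iglc1* and *Iglc2*) were higher in *Prdm1*-CKO mice, where 0.928% of all genes tested were, and 0 of the 7 were lower, where 1.42% of all genes were. These are parts of the same transcripts, a variable and a constant gene being read from 1 mRNA, so that the 4 are not independent. The groups did not overlap in 2 of the 7, and such a gap, with the *Prdm1*-CKO mice on the upper side, was found in 4.56% of all genes tested. At an adjusted p under 0.05, edgeR gave 0 of the 7 genes and 0% of the genes tested in either direction. DESeq2 gave 0 of the 7 as well, with 0.0346% called of the 26030 genes to which it gave a p. Some of these genes had no adjusted p in DESeq2 and could not be called. At an unadjusted p under 0.05 DESeq2 gave 5 of the 7 as higher, with a background of 1.01%. The median log2 fold change of the 7 genes was 1.37, beside 0.01 over all genes tested.

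The number of the 7 genes with an unadjusted p under 0.05 rested on single mice. Leaving out CTL replicate 2 or CTL replicate 3 gave 2 genes, and leaving out *Prdm1*-CKO replicate 3 gave 1. *Iglc1* was among them in 6 of 6 fits that left out a mouse, *Iglv1* in 4, *Iglc3* in 3, and *Iglv2* and *Iglc2* in 2 each.

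**Figure D2:**
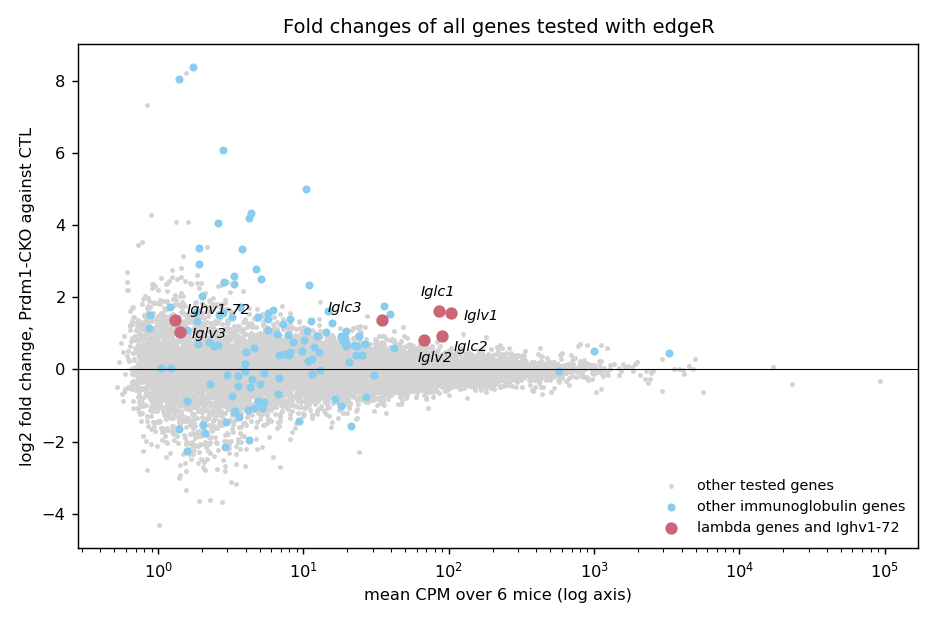
Log2 fold change of *Prdm1*-CKO against CTL mice (vertical axis) against the mean CPM over 6 mice (horizontal, log axis) for the 14555 genes tested with edgeR. Each point is a gene, blue points are other immunoglobulin genes, and the 7 genes described here, red and labelled by name, lie between 0.80 and 1.63.

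The variable and constant genes that are joined together stood in similar proportion from mouse to mouse. For each count of *Iglc1* and *Iglc3* there were 0.935, 0.890 and 0.729 counts of *Iglv1* in CTL and 0.767, 0.855 and 0.928 in *Prdm1*-CKO mice. *Iglv2* had 0.674 to 1.04 counts per *Iglc2* count in CTL and 0.682 to 0.782 in *Prdm1*-CKO mice. These ratios overlapped between the groups. The joining segments, short pieces between variable and constant genes, were read less. For *Iglj1* the CTL mice gave 86, 15 and 35 counts and the *Prdm1*-CKO mice 165, 70 and 208, without overlap in CPM (log2 fold change 1.25, SE 0.53, edgeR adjusted p = 0.996). *Iglj3* had 48, 7 and 6 counts against 53, 41 and 144, with overlap in CPM (log2 fold change 1.72, SE 0.75, edgeR adjusted p = 0.996). *Iglj2* was at 0 counts in each mouse, and it lies inside an annotated exon of *Iglc2*. *Iglj3p* had 0 to 6 counts. Of these 4 segments 2 passed the filter, 2 had an unadjusted p under 0.05 and 0 passed the adjusted test.

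The makeup of the lambda counts varied widely between mice, and the groups overlapped. *Iglc1* made up 36.7%, 21.7% and 35.8% of the lambda constant counts in CTL and 58.3%, 29.2% and 45.3% in *Prdm1*-CKO mice. *Iglc2* made up 43.6%, 60.3% and 55.8% in CTL and 29.7%, 60.2% and 30.3% in *Prdm1*-CKO mice. *Prdm1*-CKO replicate 2 thus had the makeup of the CTL mice, while replicates 1 and 3 were rich in *Iglc1*. The same mice stood out by the variable genes: *Iglv1* made up 69.4% and 72.8% of the lambda variable counts in *Prdm1*-CKO replicates 1 and 3 and 44.8% in replicate 2. In CTL mice it made up 63.6%, 35.8% and 42.4%, so that CTL replicate 1 lay with the upper mice. The mean share of *Iglc1* was 31.4% ± 8.42 (SD, n = 3) in CTL and 44.2% ± 14.6 (SD, n = 3) in *Prdm1*-CKO mice. This difference of 12.9 percentage points was above the SD of the CTL mice and under that of the *Prdm1*-CKO mice. *Iglc3* ranged from 8.41% to 24.4% and was highest in *Prdm1*-CKO replicate 3.

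**Figure D3:**
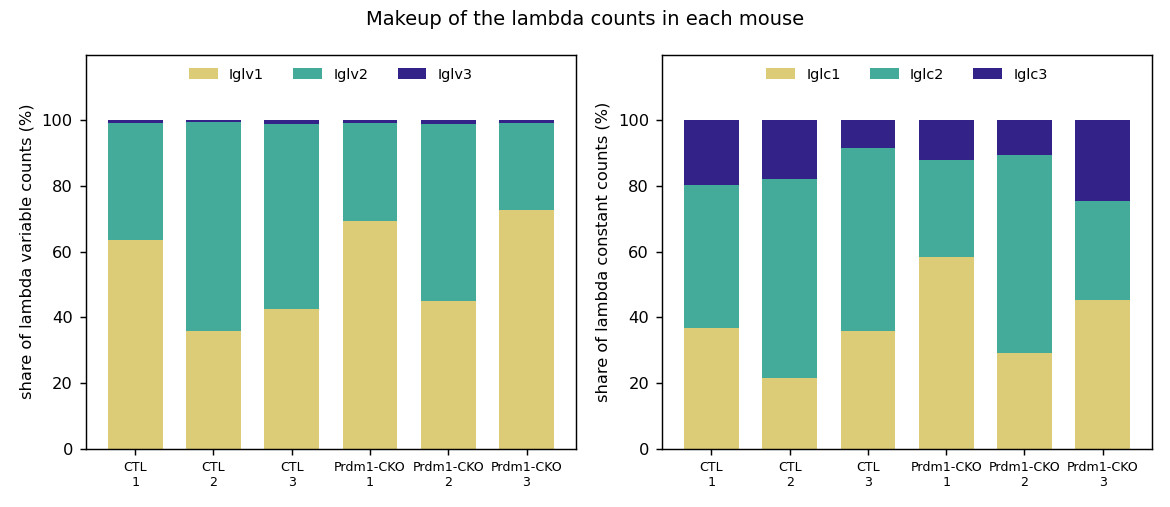
Share of each gene in the lambda variable counts (left) and the lambda constant counts (right), in percent, with 1 bar per mouse. *Iglv1* and *Iglc1* take most in *Prdm1*-CKO replicates 1 and 3, and *Iglv2* and *Iglc2* take most in CTL replicates 2 and 3 and *Prdm1*-CKO replicate 2.

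The lambda share of light chain counts does not depend on library size. *Iglc1*, *Iglc2* and *Iglc3* together took 16.3%, 11.8% and 10.6% of the counts of these genes and *Igkc*, the kappa constant gene, in CTL mice. In *Prdm1*-CKO mice they took 23.5%, 16.5% and 21.8%. The groups were apart, but the nearest pair, CTL replicate 1 and *Prdm1*-CKO replicate 2, had 95% Clopper-Pearson intervals of 15.7% to 16.8% and 15.9% to 17.1%. These intervals cover counting error only and overlap. The group values were 12.9% ± 2.97 (SD, n = 3) and 20.6% ± 3.64 (SD, n = 3), a difference of 7.69 percentage points. No p is given for this share, which sums genes chosen with earlier results known, and 3 mice against 3 cannot give an exact two-sided p under 0.1.

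Read from the variable genes, lambda took a larger part of the counts. *Iglv1*, *Iglv2* and *Iglv3* held 27.7%, 24.0% and 16.6% of light chain variable counts in CTL and 36.1%, 27.0% and 36.3% in *Prdm1*-CKO mice, the rest being the 160 *Igkv* genes. By this reading CTL replicate 1 exceeded *Prdm1*-CKO replicate 2 and the groups overlapped. The means were 22.8% ± 5.61 (SD, n = 3) and 33.1% ± 5.28 (SD, n = 3). The groups also overlapped when all lambda genes were set against all kappa genes, and when counts were divided by gene length.

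**Figure D4:**
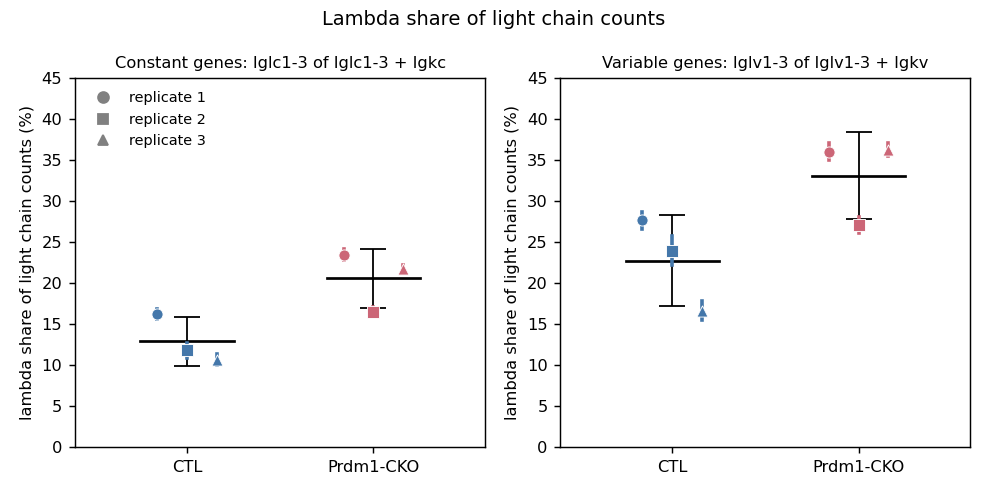
Lambda share of light chain counts in percent, from constant genes (left) and from variable genes (right). Points are mice with 95% Clopper-Pearson intervals, and bars give the mean and SD of 3 mice. CTL replicate 1 and *Prdm1*-CKO replicate 2 meet at 16.3% and 16.5% on the left and cross on the right.

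Kappa itself did not separate the groups. *Igkc* was at 893, 506 and 1078 CPM in CTL and at 713, 1451 and 1388 CPM in *Prdm1*-CKO mice, and the log2 difference was 0.52 (SE 0.33, edgeR adjusted p = 0.996). *Prdm1*-CKO replicate 1 was low in *Igkc* and high in *Iglc1*, and its lambda share was the highest of the 6 mice. Single lambda genes set against *Igkc* overlapped between the groups. *Iglc1* took 2.82% to 6.64% of the sum of *Iglc1* and *Igkc* counts in CTL and 5.45% to 15.2% in *Prdm1*-CKO mice. For *Iglc2* the ranges were 6.21% to 7.80% and 7.77% to 10.6%.

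The summed lambda constant level was 173, 67.6 and 128 CPM in CTL and 219, 287 and 386 CPM in *Prdm1*-CKO mice. Other transcripts of B lineage cells were also higher on average. *Cd79a* and *Cd79b*, which encode the signaling chains of the B cell receptor, together were at 69.7, 18.4 and 53.0 CPM in CTL and at 91.1, 63.8 and 85.1 CPM in *Prdm1*-CKO mice. Against *Cd79a* and *Cd79b* the groups overlapped: the log2 ratio of lambda constant counts was 1.31, 1.87 and 1.27 in CTL and 1.26, 2.17 and 2.18 in *Prdm1*-CKO mice. *Prdm1*-CKO replicate 1 was the lowest of all by this ratio, and the groups differed by 0.38 on the log2 scale, less than the SD of the *Prdm1*-CKO mice (0.53). This difference was 0.24 without *Prdm1*-CKO replicate 2, 0.23 without *Prdm1*-CKO replicate 3 and 0.69 without *Prdm1*-CKO replicate 1, and leaving out CTL replicate 2 gave 0.58. For *Iglc1* alone, the log2 ratio to *Cd79a* and *Cd79b* was -0.13, -0.33 and -0.21 in CTL mice, against 0.48, 0.39 and 1.04 in *Prdm1*-CKO mice. By this ratio the groups did not overlap, and they differed by 0.86 on the log2 scale. *Iglc1* was the constant gene whose CPM had already separated the groups. The ratio was not taken for *Iglc2* or *Iglc3* alone, whose CPM overlapped, so it does not speak for lambda as a whole. Against 8 heavy chain constant genes the summed lambda constant counts gave a log2 ratio of -4.85 ± 0.36 (SD, n = 3) in CTL mice. In *Prdm1*-CKO mice it was -3.91 ± 0.12 (SD, n = 3), without overlap.

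**Figure D5:**
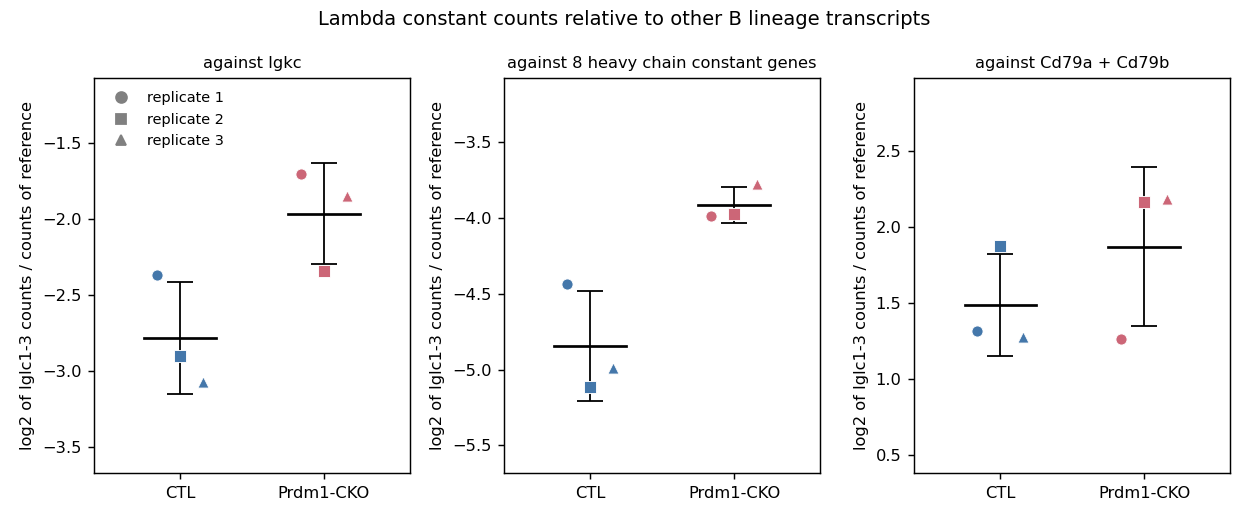
Log2 ratio of the summed *Iglc1*, *Iglc2* and *Iglc3* counts to the counts of *Igkc*, of 8 heavy chain constant genes, and of *Cd79a* plus *Cd79b*. Points are mice, bars give the mean and SD of 3 mice, and each panel spans the same range of log2 units. The groups are apart in the first and second panels and overlap in the third, where the difference is 0.38.

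Marker lists of other cell types are given beside the lambda genes, but which cells their RNA came from was not tested. All 12 B cell markers had a log2 fold change above 0, with a median of 0.75, while 51.1% of all genes tested lay above 0. None of the 12 had an unadjusted p under 0.05. Of 10 plasma cell markers, 9 lay above 0 with a median of 0.41, and 1, *Jchain*, which links IgA and IgM subunits, had an unadjusted p under 0.05 (log2 fold change 0.60, SE 0.24, edgeR adjusted p = 0.996). Their summed level was 611 to 814 CPM in CTL and 866 to 1108 CPM in *Prdm1*-CKO mice, without overlap. *Jchain* had the largest part of it (mean 339 CPM in CTL and 515 CPM in *Prdm1*-CKO mice). Most of the rest was *Xbp1* (188 and 218 CPM), *Txndc5* (116 and 134 CPM) and *Irf4* (76.3 and 76.5 CPM). *Sdc1*, the plasma cell surface marker CD138, and *Tnfrsf17*, the receptor BCMA, were among 4 plasma cell markers at 0 counts in CTL replicate 2. Germinal center B cell markers passed the filter in 4 of 8 cases, with a summed level of 96.1 to 126 CPM in CTL and 91.6 to 113 CPM in *Prdm1*-CKO mice. Most of that sum was *S1pr2* (mean 54.9 CPM in CTL and 45.1 CPM in *Prdm1*-CKO mice) and *Fas* (49.1 and 49.5 CPM). *Gcsam*, *Mybl1*, *Rgs13* and *Basp1* did not pass the filter. The 10 macrophage markers lay above 0 in 10 cases, with sums of 482 to 1425 CPM against 1024 to 1454 CPM. Of these, 2 had an unadjusted p under 0.05 in edgeR, *Cd5l* (log2 fold change 0.92, SE 0.30) and *C1qc*, a complement subunit (1.49, SE 0.57), both without overlap and with an adjusted p of 0.996. The part of these lists in the lambda levels was not tested. Of the 12 Tfh markers, 4 lay above 0, with a median log2 fold change of -0.03. Only 1, *Cd4*, had an unadjusted p under 0.05, and it was lower, where 1.42% of all genes tested were. Its log2 fold change was -0.29 (SE 0.12, edgeR unadjusted p = 0.0465, adjusted p = 0.996), without overlap.

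*Ighv1-72*, the heavy chain gene of the classical NP response, was scarce. CTL mice gave 26, 0 and 2 counts and *Prdm1*-CKO mice 54, 26 and 2. Each group held a mouse with 26 or more counts and a mouse with 2 or fewer, and *Prdm1*-CKO replicate 3, the mouse with the most *Iglv1* counts, had 2. Its level was 0.691 ± 0.952 CPM (SD, n = 3) in CTL and 1.94 ± 1.57 CPM (SD, n = 3) in *Prdm1*-CKO mice. The log2 fold change of *Ighv1-72* was 1.37 (SE 1.33, edgeR unadjusted p = 0.331, adjusted p = 0.996), and it was 3.70 without CTL replicate 1 and 0.81 without CTL replicate 2.

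Among the 185 *Ighv* genes, of which 131 had counts, *Ighv1-72* ranked 56 by mean CPM per kilobase of exon. It took 0.461% of heavy chain variable counts in CTL replicate 1 and 0.0644% in CTL replicate 3. In CTL replicate 2 it had 0 of 1573 counts, which allows a share of up to 0.191%, taken as 3 counts of the total. The shares were 0.834%, 0.517% and 0.0211% in *Prdm1*-CKO mice, so that the groups overlapped. The difference of the means, 0.282 percentage points, was 0.0940 without *Prdm1*-CKO replicate 1 and 0.501 without *Prdm1*-CKO replicate 3, and leaving out CTL replicate 1 gave 0.425. *Ighv1-62-3*, which shared the most sequence with it, had 4 counts in 1 mouse and 0 in the others. *Ighv1-53* gave 15, 26 and 26 counts in CTL mice, and 82, 74 and 136 in *Prdm1*-CKO mice, without overlap in CPM (log2 fold change 1.45, SE 0.60, edgeR unadjusted p = 0.0401, adjusted p = 0.996). These 2 neighbours were chosen for their sequence after the data were seen.

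The segments that join *Ighv1-72* in the classical NP heavy chain were also read. *Ighd1-1*, a diversity segment, was read 16, 8 and 14 times in CTL mice, against 102, 36 and 32 times in *Prdm1*-CKO mice. In CPM its groups did not overlap, and its log2 fold change was 1.51 (SE 0.63, edgeR unadjusted p = 0.0431, adjusted p = 0.996). *Ighj2*, a joining segment, was at 24.1, 4.25 and 16.7 CPM in CTL and at 21.7, 21.2 and 29.7 CPM in *Prdm1*-CKO mice. The groups overlapped, with a log2 difference of 0.68 (SE 0.53, edgeR adjusted p = 0.996). These segments serve many heavy chains besides those with *Ighv1-72*.

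The heavy chain constant genes were read in the same libraries, but bulk counts do not tell which classes were paired with lambda and which with kappa chains. *Ighm*, the gene of IgM, was at 2021 to 3656 CPM in CTL and 3176 to 4335 CPM in *Prdm1*-CKO mice, with overlap. *Igha*, the gene of IgA, was at 71.8, 307 and 1366 CPM in CTL and at 216, 640 and 830 CPM in *Prdm1*-CKO mice, with wide overlap. *Ighg1*, the gene of IgG1, the class that T cell help against protein antigens typically induces, was read at counts of 0, 0 and 10 in CTL mice and of 32, 20 and 0 in *Prdm1*-CKO mice. *Ighg2b*, *Ighg2c* and *Ighg3*, which encode other IgG classes, varied widely between mice. *Ighg2c*, for example, was read at 0, 0 and 221 counts in CTL mice, against 613, 0 and 3 in *Prdm1*-CKO mice. *Ighg3* had 45, 34 and 370 counts against 86, 732 and 1407 counts. *Ighe* was at 0 counts in each mouse. Of these 8 genes 6 passed the filter, and 1, *Ighd*, the gene of IgD, had an unadjusted p under 0.05 (log2 fold change 0.86, SE 0.32, edgeR adjusted p = 0.996). The surrogate light chain genes of B cell precursors were at or near 0: *Igll1* and *Vpreb2* had 0 counts in each mouse, *Vpreb1* 0 to 9 and *Vpreb3* 0 to 22.

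Per kilobase of exon and over all 6 mice, *Iglv1* had the highest level of the 7 genes, at 265 CPM per kb (range 61.1 to 640). It was followed by *Iglc1* (187, range 32.3 to 385), *Iglv2* (186, range 116 to 322), *Iglc2* (148, range 66.6 to 282) and *Iglc3* (76.8, range 23.8 to 209). The ranges of these 5 genes over the mice overlapped. Such overlap leaves aside that all were read in the same mice, and differences between neighbours in this order were not tested. *Iglv3* (3.73, range 0.931 to 6.46) and *Ighv1-72* (3.32, range 0 to 7.67) lay below all of them in every mouse and overlapped each other. *Igkc* had 1889 CPM per kb (range 950 to 2727), above each lambda gene.

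The profile of *Iglc1* over the 6 mice was most like that of *Hist1h4n*, a histone gene, and *Nectin2*, an adhesion molecule gene, among the tested genes outside the 7. The measure was the root mean square difference of log2 CPM after each gene was centred on its mean, and it was 0.26 and 0.28. *Iglj1* (0.28), *Ptafr*, the receptor of platelet-activating factor (0.31), and *Dab2*, an endocytic adaptor (0.32), followed. *Hist1h4n*, *Nectin2* and *Dab2* had at most 35 counts in a mouse. *Iglv1* lay at 0.32 from *Iglc1* by the same measure, *Iglc3* at 0.70, *Iglc2* at 0.86 and *Iglv2* at 0.95. The genes most like *Ighv1-72* were *Fhl4*, *Zfp647*, *Apoc1*, *Prss50* and *Inka1*, at 0.51 to 0.63, each with 0 counts in CTL replicate 2.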

How the data were processed

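RNA of sorted splenic Tfh cells from 3 CTL and 3 *Prdm1*-CKO mice was made into 1 Smart-seq2 library per mouse and sequenced as paired reads of 25 bases. The authors deposited raw counts of reads per gene, made with featureCounts 1.4.6 on GENCODE mouse release 9 (Ensembl 84). The submitters' processing notes name STAR 2.4.2a and GRCm38.p6. The handling of strand, of reads with several alignments and of mates is not given in the sources used here. Between 56.7% and 59.6% of genes with 1 to 20 counts had an even count, and counts halved and rounded up were therefore added as an alternative. GENCODE M21 (GRCm38) gave the symbols, exonic lengths and positions for 53274 of 53379 identifiers, and had the 7 genes in the same version. Depth was 7147601 to 16973392 counts.

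Counts were scaled by TMM, filtered with filterByExpr and tested with the quasi-likelihood F test of edgeR 4.0.16 in R 4.3.3, two-sided, with Benjamini-Hochberg adjustment over 14555 genes and no covariate. Log2 CPM used a prior count of 2. DESeq2 1.42.0 was an alternative. Other alternatives were DESeq2 size factors, no filter, the replicate number as a block, library sizes without immunoglobulin genes, and leaving out each mouse. Shares of counts above 0 carry exact Clopper-Pearson intervals from scipy 1.17.1. Windows of 25 bases were matched exactly, on both strands, to all GENCODE M21 transcripts. Genes were named by a fixed rule: the 7 genes, their lists, the 5 nearest profiles of *Iglc1* and *Ighv1-72* and the 3 highest *Ighv* and *Igkv* genes. The 7 genes and the lists were chosen with earlier results of these data known. Markers at 0 counts were named after their values were seen. Each replicate was a separate mouse.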

Additional observations from a re-analysis of the deposited data

How the results depend on the processing

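Each of the 7 genes kept a log2 fold change above 0 in all 83 values under the alternatives run, and 0 of these passed an adjusted p of 0.05. The lowest adjusted p of the 7 genes was 0.265, for *Iglc1* in DESeq2. Genes higher at an adjusted p under 0.05 over the whole table went from 0 to 7 with DESeq2 and to 1 without a filter, and lower ones from 0 to 2 with DESeq2. Genes higher at an unadjusted p under 0.05 went from 135 to 264 with DESeq2, to 426 without a filter, and ran from 58 without *Prdm1*-CKO replicate 3 to 580 without CTL replicate 1. Of the 7 genes, 4 had such a p with all mice, and this ran from 1 without *Prdm1*-CKO replicate 3 to 5 without *Prdm1*-CKO replicate 1. The replicate number as a block gave 2 of the 7. Replicates with the same number were different mice, and their deviations from the group means correlated at 0.16, 0.028 and 0.016. The lambda share difference of 7.69 percentage points ran from 6.24 to 9.73 when a mouse was left out and was 8.42 and 8.58 under the other readings. The share of *Ighv1-72* differed by 0.282 percentage points among all *Ighv* genes and by 1.34 within the *Ighv1* family. The cause of these changes was not tested. Counts halved and rounded up, chosen after seeing the data, gave 5 of the 7 and removed *Iglv3* by the filter. At the depth of the shallowest mouse, a level of *Ighv1-72* or *Iglv3* under 0.443 CPM could not be read.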

Other observations

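The highest heavy and kappa variable genes show what the lambda genes were read beside. *Ighv6-3* was at 59.0, 26.0 and 15.1 CPM in CTL and at 22.4, 71.1 and 60.1 CPM in *Prdm1*-CKO mice. *Ighv4-1* was at 46.0, 0 and 13.9 CPM against 19.6, 37.2 and 42.2 CPM. Both overlapped between the groups. *Ighv7-1* was at 12.8, 11.2 and 25.7 CPM in CTL and at 58.4, 34.5 and 73.6 CPM in *Prdm1*-CKO mice, without overlap. The log2 difference of *Ighv7-1* was 1.76 (SE 0.40), and its adjusted p was 0.996 by edgeR and 0.0235 by DESeq2. DESeq2 gave a p for more genes (26030 against 14555) but an adjusted p for only part of them. Among kappa genes, *Igkv1-135* (log2 fold change -0.14), *Igkv6-15* (-0.76) and *Igkv1-117* (0.41) had the highest mean CPM and overlapped between the groups (edgeR adjusted p = 0.996 for each). Per kilobase of exon and over 6 mice, *Iglv1* and *Iglv2*, at 265 and 186 CPM per kb, were each above the highest *Ighv* gene, *Ighv6-3*, at 119 CPM per kb, and the highest *Igkv* gene, *Igkv1-135*, at 77.8 CPM per kb. The lambda counts fall on 3 variable genes, against 185 *Ighv* and 160 *Igkv* genes. Windows shared with other genes were not counted for *Ighv6-3* or *Igkv1-135*.

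The joining segments were read at varying proportions to their constant genes, and several of these values rest on few counts. *Iglj1* had 9.25, 12.1 and 11.3 counts per 100 counts of *Iglc1* in CTL and 7.28, 8.48 and 8.13 in *Prdm1*-CKO mice, lower in 3 of 3 mice. *Iglj3* had 9.56, 6.80 and 8.22 counts per 100 counts of *Iglc3* in CTL and 11.3, 13.7 and 10.4 in *Prdm1*-CKO mice, higher in 3 of 3 mice. In CTL replicates 2 and 3 the *Iglj3* values rest on 7 and 6 counts and the *Iglj1* values on 15 and 35. Counting error in these ratios was not assessed. These ratios were chosen after the data were seen and were not tested.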
